A study of Mus musculus with 3 samples.

Results

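Cytokine mRNAs are destroyed soon after they are made, and the proteins that mark them for destruction include the Zfp36 and Zc3h12 families. Zfp36 (tristetraprolin), Zfp36l1 and Zfp36l2 bind AU-rich elements in the 3′ untranslated region of their targets through a pair of CCCH zinc fingers and recruit the CCR4-NOT deadenylase. Zc3h12a (Regnase-1) is an endonuclease that cuts mRNAs such as Il6 at stem-loops in the 3′ untranslated region, and Zc3h12c and Zc3h12d are its relatives. In macrophages these proteins limit how long an inflammatory response lasts.

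The 6 genes were taken by name out of the 22350 protein-coding genes of the GENCODE M1 annotation on chromosomes 1 to 19 and X (mm9). Pol_II phosphorylated at Ser5 of the carboxy-terminal repeat of its largest subunit, a mark of Pol_II that has begun transcription, was mapped by ChIP-Seq in bone marrow-derived macrophages (BMDM) of female Fvb mice (Fvb/Hsd in the methods) on day 7 of differentiation. There was 1 Ser5 library of untreated cells, 1 of cells given 10 ng/ml LPS (lipopolysaccharide, the bacterial endotoxin) for 2 h, and 1 of input DNA (chromatin that saw no antibody) from untreated cells. The labels name LPS alone, whereas the study's own display of the stimulated Ser5 library names LPS with γIFN (gamma interferon), so each ratio is that of the library labelled LPS, whichever treatment it had. The libraries held 7616771, 6249819 and 7533308 tags on the chromosomes used, and each tag was counted at its 5′ end, either over the gene body (the annotated span) or within 1 kb of the TSS. With 1 library per condition no difference has a replicate check, no test was made, and every interval is a 95% interval for counting error only. A gene is called higher or lower when the LPS library has at least 2 times, or at most 0.5 times, the TPM of the untreated library, and the 2 together hold at least 10 tags. TPM stands for tags scaled to the library total on these chromosomes, and densities are TPM per kb.

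The libraries were checked against their labels. All 6 genes chosen as LPS response genes (Ccl5, Cxcl10, Il1b, Tnf, Nfkbia and Il6) were higher in the LPS library, at the gene body and at the TSS. All 7 macrophage markers found in the annotation had at least 2 times the input at the TSS in untreated cells, and 6 did after LPS. The exception was Itgam, with 105 tags untreated, 36 after LPS and 22 in the input. Their summed level was 517 TPM untreated, 350 after LPS and 21.1 in the input. Against that fall, Emr1 was called higher (288 and 728 tags), while Itgam and Lyz2 (1786 and 529) were called lower. Markers of T cells (6 genes), B cells (5) and fibroblasts (5) had TSS sums of 1.05 to 3.02 TPM untreated and 1.76 to 3.52 after LPS, below the 3.72 to 6.24 of the input. Single genes departed from these sums. The B cell marker Cd79a had 17 TSS tags untreated (8 in the input), and Ms4a1 went from 3 to 11 (16 in the input). The T cell marker Lck had 312 and 281 tags at its gene body (99 in the input). The 7 neutrophil markers summed to 7.75, 14.2 and 9.82 TPM. Among them Camp went from 21 to 58 tags (24 in the input), S100a8 from 30 to 21 and Ly6g was at 0 in both Ser5 libraries, and their part in the results was not tested. In a bulk library, fewer cells that transcribe a gene and less Pol_II per cell cannot be told apart. Tags were 45 bases long in the untreated library, 30 in the LPS library and 36 in the input, and shorter tags are lost more often in repeated sequence. The supplementary methods give the lengths of the Ser5 libraries the other way round.

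At the gene body, the decay factors split within each family after LPS. Zfp36, Zc3h12a and Zc3h12c were called higher (3 of 6, against 5.83% of the 17386 protein-coding genes counted), and Zfp36l1, Zfp36l2 and Zc3h12d were called lower (3 of 6, against 11.3%). At the TSS, 2 of 6 were higher (against 5.58% of 12535 genes) and 3 of 6 lower (against 14.1%). The median ratio over all genes counted was 0.874 at the gene body and 0.831 at the TSS, or -0.19 and -0.27 on the log2 scale, so a ratio of 1 lies slightly above the typical gene.

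**Figure D1:**
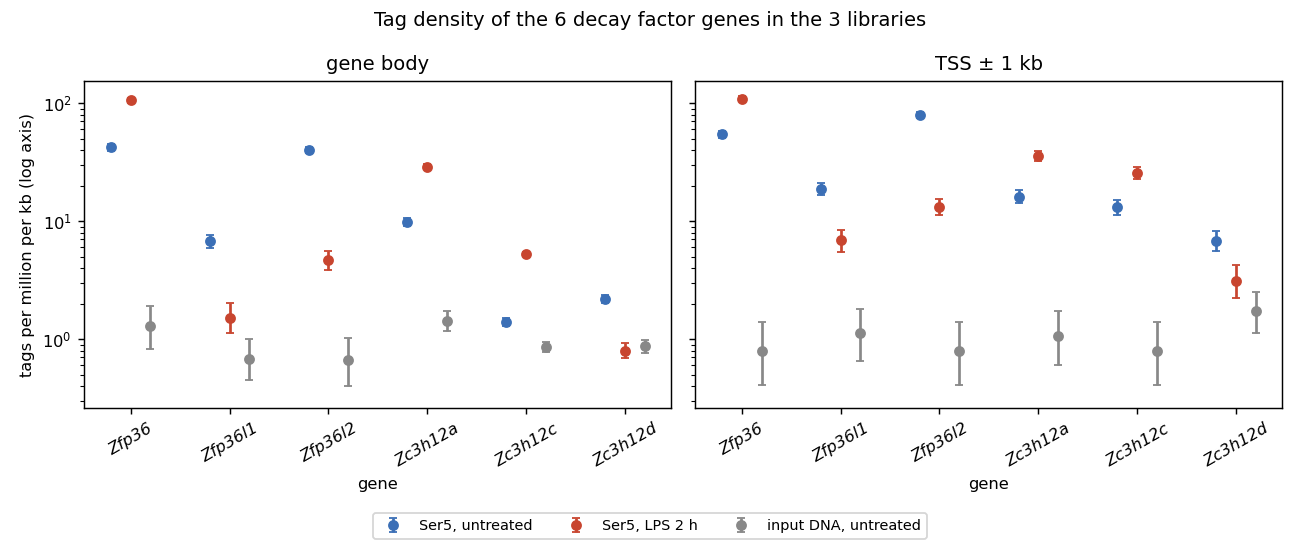
Tag density (TPM per kb, log axis) of each decay factor gene over the gene body (left) and within 1 kb of the TSS (right) in untreated Ser5, LPS Ser5 and input DNA. Points are single libraries and bars are exact 95% Poisson intervals. Zfp36 and Zc3h12a meet the rule for higher in both panels and Zc3h12c at the gene body (its TSS ratio of 1.96 falls short), the other 3 genes meet the rule for lower in both, and Zc3h12d falls to the level of the input at its gene body.

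The sequences shown first are those in front of 3 genes that behaved differently, Zfp36 and Zc3h12a, which were higher after LPS, and Zfp36l1, which was lower. They come from the RefSeq promoter table (GRCm38.p6), which held 5 of the 6 genes, and each was found once on the chromosome and strand of its gene in mm9. The 250 bases before each RefSeq start were searched on both strands for 9 motifs. These were the kappaB consensus, the CArG box, the core of the interferon-stimulated response element, the AP-1-type TGANTCA, the CRE-type TGACGTCA, the TATA box as TATAAA, the Sp1-type GGGCGG, the PU.1-type GAGGAAGT and the Ets-type CCGGAAGT. Capitals mark matches. Zfp36 is at chr7:29164275-29164497, Zfp36l1 at chr12:81214001-81214250 and Zc3h12a at chr4:124805126-124805375, all on the minus strand. For Zfp36 the 223 bases before the GENCODE start are printed, since its RefSeq start lies 27 bp inside the GENCODE gene.
Zfp36 promoter: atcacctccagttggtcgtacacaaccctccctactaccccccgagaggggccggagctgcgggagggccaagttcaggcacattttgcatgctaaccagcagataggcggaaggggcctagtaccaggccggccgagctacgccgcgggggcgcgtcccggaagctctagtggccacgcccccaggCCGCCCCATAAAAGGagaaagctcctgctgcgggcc
Zfp36l1 promoter: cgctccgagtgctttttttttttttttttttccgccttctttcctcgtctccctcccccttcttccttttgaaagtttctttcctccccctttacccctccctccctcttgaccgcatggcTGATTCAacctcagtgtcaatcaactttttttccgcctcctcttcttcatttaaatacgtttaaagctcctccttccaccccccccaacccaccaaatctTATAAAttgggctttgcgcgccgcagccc
Zc3h12a promoter: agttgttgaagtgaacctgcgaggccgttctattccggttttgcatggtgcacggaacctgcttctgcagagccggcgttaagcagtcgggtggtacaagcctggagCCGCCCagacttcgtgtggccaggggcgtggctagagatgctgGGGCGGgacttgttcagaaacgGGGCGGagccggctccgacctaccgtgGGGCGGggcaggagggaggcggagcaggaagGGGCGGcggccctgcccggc

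Zfp36 had a CArG box, the site of serum response factor, from -58 to -49 before its RefSeq start, overlapping a GGGCGG on the other strand. A CArG box was in 1.48% of the 32536 promoters in the table and GGGCGG in 33.0%. Zfp36l1 had TATAAA from -29 to -24 (12.3% of promoters) and TGANTCA from -129 to -123 (6.73%). Zc3h12a had 5 matches to GGGCGG and none of the other letters searched. Zc3h12c and Zc3h12d each had 1 GGGCGG, and a second Zc3h12c promoter, for a start 18748 bp inside the gene, had no match. The kappaB consensus was in 5.03% of all promoters and in 0 of the 5 upstream of these genes, which says only that these letters were not in these windows.

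Zfp36 was among the most heavily occupied genes before and after LPS. It is a gene of 2472 bp at chr7:29161803-29164274 on the minus strand, and its product is the founding member of the family. Its gene body held 795 Ser5 tags untreated, 1636 after LPS and 24 in the input. The LPS library was the highest, and the ratio to untreated was 2.51 (interval 2.30 to 2.73). Only 0.420% of the genes were denser in the untreated library and 0.155% in the LPS library.

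At the Zfp36 TSS there were 831, 1367 and 12 tags, a ratio of 2.00 (1.84 to 2.19), which just met the rule. Beyond the first 1 kb the gene had 182 and 540 tags, a ratio of 3.62 (3.05 to 4.30), so the gain was larger in the body than at the start. Past the 3′ end, where Pol_II runs on before it terminates, the 4 kb flank had 548 tags untreated and 996 after LPS (ratio 2.22, 1.99 to 2.46). An intergenic peak centred 3118 bp upstream was in both lists and went from 395 to 423 tags (ratio 1.31).

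Zfp36l2 went the opposite way. This paralog (chr17:84583271-84587287, minus strand, 4017 bp) held 1231 tags untreated, 117 after LPS and 20 in the input over its gene body. Untreated cells were by far the highest, and the ratio was 0.116 (0.0950 to 0.140), lower than in 99.7% of the genes counted. At its TSS there were 1209, 166 and 12 tags (0.167, 0.141 to 0.197). In the 3′ flank the tags fell from 1095 to 120 (0.134, 0.110 to 0.161). The upstream flank, which reaches into the neighbouring gene Thada, had 71 and 29 tags (0.498, 0.312 to 0.777). Even so, Zfp36l2 after LPS kept 7.05 times the input (lower limit 4.36) over the gene body.

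Within 50 kb of the Zfp36l2 TSS there were 7 peaks. The 3 that were in both lists touched the gene and had ratios of 0.115 to 0.174, while 4 intergenic ones were in the untreated list alone, so their direction is not independent of how they were chosen. Much of this gene is repeated elsewhere: 29.9% of its 30-base and 28.2% of its 45-base sequences occur more than once in mm9, and the last of 4 equal parts of the gene held 5, 0 and 0 tags. With only positions whose 30 bases occur once, the gene body ratio was 0.117.

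Zfp36l1 was also lower at the gene, but not in the flank from 5 to 1 kb upstream. The gene (chr12:81208747-81214000, minus strand, 5254 bp) held 269 tags untreated, 50 after LPS and 27 in the input, a ratio of 0.227 (0.164 to 0.307). At its TSS there were 285, 86 and 17 tags (0.368, 0.286 to 0.470), and in the 3′ flank 107, 25 and 15 (0.285, 0.176 to 0.443). In contrast, the flank from 5 to 1 kb upstream held 202 tags untreated and 227 after LPS, a ratio of 1.37 (1.13 to 1.66). The non-coding gene Gm17591 overlaps Zfp36l1 on the other strand, and ChIP tags do not separate the pair. Of the 30-base sequences of the gene, 18.8% are repeated, against 11.5% of the 45-base sequences, and the ratio over positions whose 30 bases occur once was 0.23.

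The LPS list had 3 intergenic peaks in that upstream flank. The nearest to the gene, centred 1465 bp upstream, had 71 tags untreated and 50 after LPS (0.858, 0.585 to 1.25). The next, centred 2492 bp upstream, had 104 tags untreated and 123 after LPS (1.44, 1.10 to 1.89). The farthest, centred 3861 bp upstream, was in the LPS list alone and had 5 tags untreated, 25 after LPS and 4 in the input (6.09, 2.29 to 20.4). The last pair was singled out after the values were seen, because it differed from the gene. Other peaks upstream had lower ratios: at -661 bp there were 16 and 5 tags (0.381), at -6501 bp 12 and 2 (0.203), and at -17841 bp, in another gene, 32 and 9 (0.343), all from the untreated list alone. The 300 bases around each midpoint are shown on the strand of Zfp36l1 (mm9, chr12:81216343-81216642 and chr12:81217712-81218011), with matches to the same motifs in capitals.
Zfp36l1 2492 bp upstream: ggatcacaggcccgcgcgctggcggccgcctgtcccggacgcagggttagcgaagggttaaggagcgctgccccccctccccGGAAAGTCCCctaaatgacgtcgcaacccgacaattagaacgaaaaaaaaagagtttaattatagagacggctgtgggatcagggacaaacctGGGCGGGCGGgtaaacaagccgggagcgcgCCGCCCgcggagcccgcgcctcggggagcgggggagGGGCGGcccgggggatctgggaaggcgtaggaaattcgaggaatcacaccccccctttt
Zfp36l1 3861 bp upstream: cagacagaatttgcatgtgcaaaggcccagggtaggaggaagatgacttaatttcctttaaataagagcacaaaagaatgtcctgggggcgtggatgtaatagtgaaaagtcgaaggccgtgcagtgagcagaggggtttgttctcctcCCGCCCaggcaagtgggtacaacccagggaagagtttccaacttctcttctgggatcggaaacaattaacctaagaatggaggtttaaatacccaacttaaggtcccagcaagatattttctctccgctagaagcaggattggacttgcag

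The window 2492 bp upstream held 1 match to the kappaB consensus and 4 to GGGCGG, and that 3861 bp upstream 1 GGGCGG. Of the 15201 windows of the same length around LPS peaks on the chromosomes of the 6 genes, 6.12% held a kappaB match and 22.8% a GGGCGG.

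**Figure D2:**
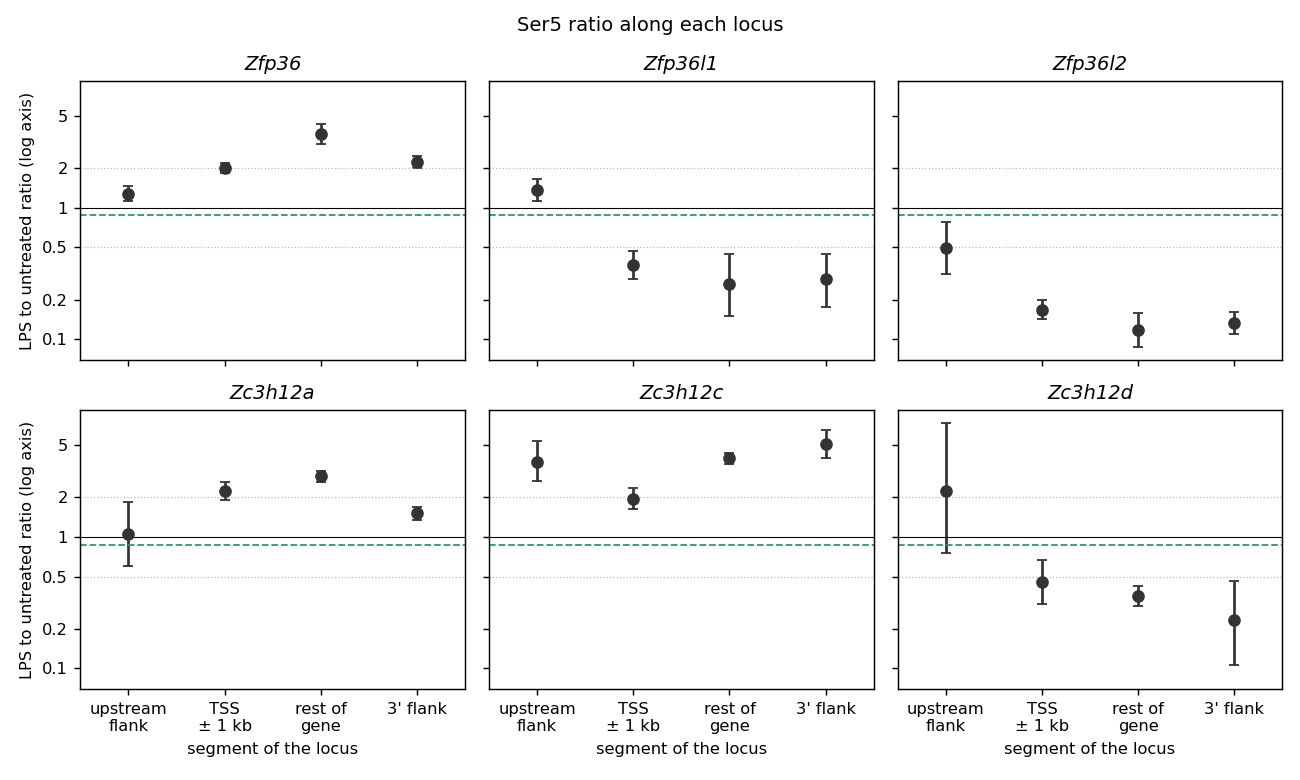
LPS to untreated ratio of Ser5 tags (log axis) in 4 segments of each locus: the flank from 5 to 1 kb upstream, TSS ± 1 kb, the rest of the gene and the 4 kb past its end. Bars are exact 95% intervals, the solid line is a ratio of 1, the green dashed line the median gene body ratio of 0.874 and the dotted lines the rule of size. Zfp36l1 shows a ratio of 1.37 upstream beside 0.368 within 1 kb of the TSS and 0.264 in the rest of the gene.

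As a family, the Zfp36 genes had most of their Ser5 density in 1 member after LPS. Of the summed gene body density of the 3 genes, Zfp36 had 47.3% and Zfp36l2 45.1% untreated, and their intervals of density overlapped (42.2 TPM per kb, 39.3 to 45.3, and 40.2, 38.0 to 42.5). After LPS, Zfp36 had 94.5%, Zfp36l2 4.16% and Zfp36l1 1.36%. The sum itself went from 89.2 to 112 TPM per kb. These densities divide by the whole span, although 29.9% of the 30-base sequences of Zfp36l2, 18.8% of Zfp36l1 and 0% of Zfp36 are repeated. Densities of Zfp36l2 and Zfp36l1 may therefore be too low, and neither the shares nor the near tie untreated were corrected for it. At the TSS the order untreated was the other way, with Zfp36l2 at 52% and Zfp36 at 35.7%, and after LPS they stood at 10.3% and 84.4%, while the sum went from 153 to 129 TPM per kb.

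Zc3h12a, the best known of the endonucleases, was higher after LPS along its whole length. The gene (chr4:124795667-124805084, minus strand, 9418 bp) held 703 tags untreated, 1702 after LPS and 102 in the input, a ratio of 2.95 (2.70 to 3.23). Its TSS had 245, 449 and 16 tags (2.23, 1.91 to 2.62). In 4 equal parts of the gene, from the start to the end, the ratios were 3.21, 3.15, 2.66 and 2.24. The 3′ flank already had 534 tags untreated and reached 661 after LPS (1.51, 1.34 to 1.69). In the peak lists, 7 untreated peaks covered 78.9% of Zc3h12a and 4 LPS peaks covered 97.3%, fewer peaks over more of the gene.

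Zc3h12c had the largest gene body ratio of the 6. It is a long gene of 56127 bp (chr9:51920090-51976216, minus strand) with 600 tags untreated, 1853 after LPS and 364 in the input. Untreated, its body was only 1.63 times the input (1.43 to 1.86), and after LPS 6.14 times (5.48 to 6.88). LPS over untreated came to 3.76 (3.43 to 4.13), with 1.54% of the genes above it. At its TSS there were 200, 321 and 12 tags, a ratio of 1.96 (1.63 to 2.35), just short of the rule. A second annotated start of Zc3h12c, 23524 bp inside the gene, had 17 tags untreated, 72 after LPS and 11 in the input within 1 kb, a ratio of 5.16 (3.01 to 9.34). The second of 4 equal parts of the gene, in which that start lies, had 4.02 (3.27 to 4.96). These intervals overlap, so the counts do not set this start apart from the gene around it.

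The gain at Zc3h12c covered the gene from end to end. In 4 equal parts from start to end the ratios were 3.04, 4.02, 4.91 and 3.55, and in the 3′ flank the tags went from 81 to 336 (5.06, 3.96 to 6.53). The untreated list had 6 peaks in the gene, covering 4.03% of it, and the LPS list 48 peaks, covering 49.4%. A peak 4613 bp upstream (mm9, chr9:51980340-51981319) had 36 tags untreated, 103 after LPS and 7 in the input (3.49, 2.36 to 5.25). The 300 bases around its midpoint held no match to any motif searched.

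**Figure D3:**
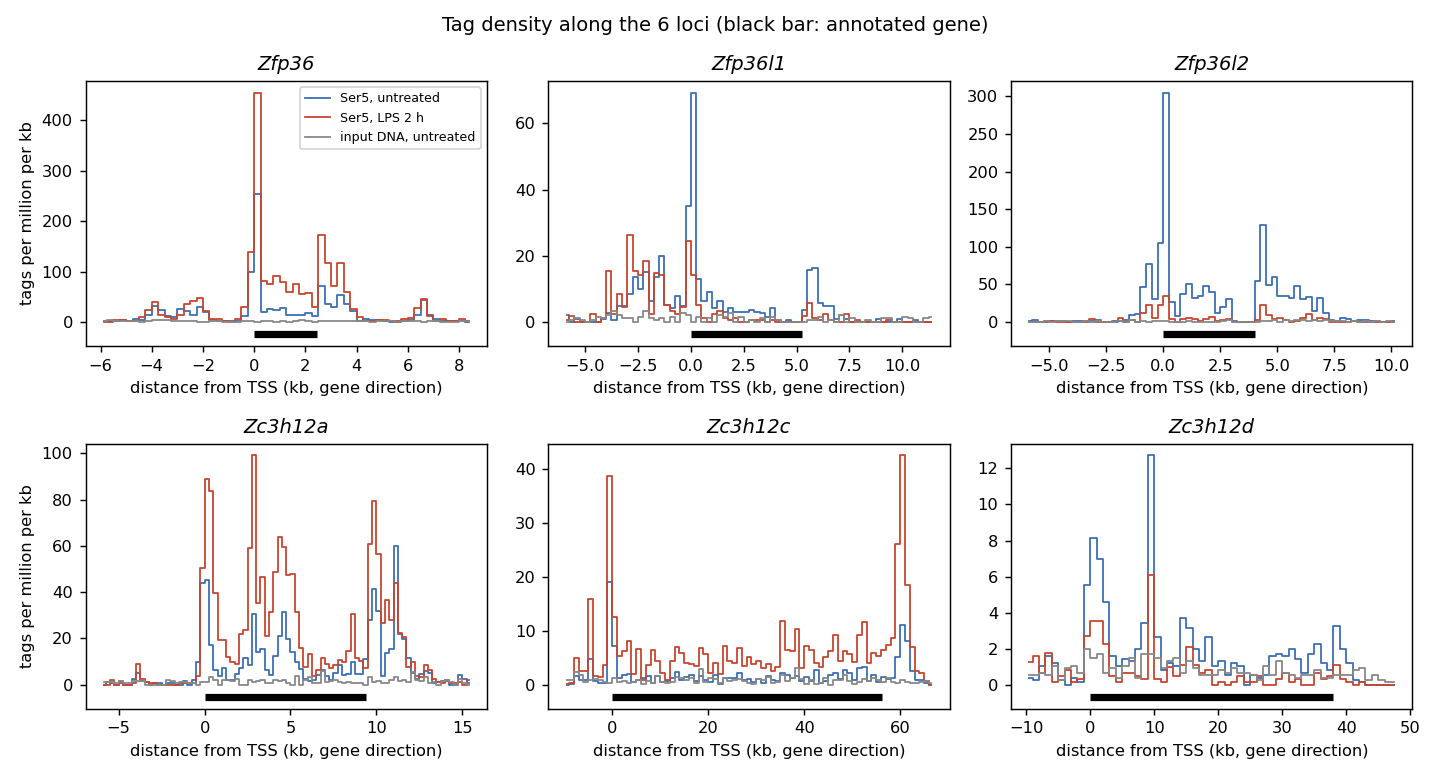
Tag density (TPM per kb) against distance from the TSS in the direction of the gene, in bins of 250 bp for the 4 shorter genes and 1 kb for Zc3h12c and Zc3h12d, with the annotated gene as a black bar. Vertical axes differ between panels. Zc3h12c after LPS lies above untreated cells over most of its length and past its end, and the LPS signal of Zfp36l1 lies mainly upstream of its start.

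Zc3h12d was the least occupied of the 6 after LPS. The gene (chr10:7552268-7590195, plus strand, 37928 bp) held 631 tags untreated, 189 after LPS and 248 in the input, a ratio of 0.365 (0.309 to 0.430). The LPS library was the lowest of the 3, at 0.919 times the input (0.756 to 1.11), so the body as a whole was at the level of the input. This order depended on the scaling, since it was 1.89 when only tags outside peaks set the scale. The 3 peaks of the LPS list in the gene had 2.41 to 2.68 times the input. At the TSS there were 104, 39 and 26 tags (0.457, 0.308 to 0.666). The largest untreated peak in the gene, centred 9572 bp inside it, went from 116 to 39 tags (0.410, 0.277 to 0.594), and the peaks in the gene went from 7 to 3. The RNA genes AC159137.1 and SNORA40 are annotated inside Zc3h12d, and their tags are included.

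Against the input, 5 of 6 gene bodies had at least 2 times its TPM untreated (Zc3h12c did not; 37.6% of all genes counted did) and 5 of 6 after LPS (Zc3h12d did not; 32.9%). At the TSS it was 6 of 6 untreated (71.9% of all genes) and 5 of 6 after LPS (70.4%), again without Zc3h12d. When only tags outside peaks set the scale, Zc3h12c had 3.12 times the input untreated and 12.6 times after LPS, so that 6 of 6 gene bodies passed untreated, while Zc3h12d after LPS, at 1.89, still did not. All 6 genes had a peak within 1 kb of the TSS in both lists, beside 48% and 45.9% of all protein-coding genes.

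The order of the 6 genes by gene body density changed with LPS. Untreated it ran Zfp36, Zfp36l2, Zc3h12a (9.80 TPM per kb), Zfp36l1 (6.72), Zc3h12d (2.18) and Zc3h12c (1.40), and only the leading pair had overlapping intervals. After LPS it ran Zfp36 (106), Zc3h12a (28.9), Zc3h12c (5.28), Zfp36l2 (4.66), Zfp36l1 (1.52) and Zc3h12d (0.797), and only Zc3h12c and Zfp36l2 overlapped. Neither order was corrected for repeated sequence, which may lower the density of Zfp36l2 most, so its places beside Zfp36 and Zc3h12c are uncertain. At the TSS the untreated order was Zfp36l2 (79.3), Zfp36 (54.5), Zfp36l1 (18.7), Zc3h12a (16.1), Zc3h12c (13.1) and Zc3h12d (6.82). There the intervals of Zc3h12a overlapped those of Zfp36l1 and of Zc3h12c. After LPS the TSS order was the same as at the gene body.

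In the 3 genes called higher, the rest of the gene gained more than the window of 1 kb on each side of the TSS. The density at the TSS divided by that in the rest of the gene went from 3.36 (2.86 to 3.96) to 1.86 (1.68 to 2.06) in Zfp36 and from 10.1 (8.55 to 11.9) to 4.98 (4.41 to 5.62) in Zc3h12c, with intervals apart. Counting 1 tag per position and strand, the Zfp36 values were 2.09 and 1.27. In Zc3h12a the quotient went from 1.82 (1.56 to 2.12) to 1.41 (1.26 to 1.57), with intervals that barely overlap. Its LPS to untreated ratio was 2.89 (2.62 to 3.19) in the rest of the gene and 2.23 (1.91 to 2.62) at the TSS. The TSS window also takes in 1 kb before the gene. Inside Zc3h12a the first of 4 equal parts had 3.21 (2.71 to 3.82) and the last 2.24 (1.73 to 2.92), so its start did not gain less. In the genes called lower the quotient was 7.30 and then 10.2 in Zfp36l1, 3.54 and then 5.00 in Zfp36l2, and 3.37 and then 4.31 in Zc3h12d, each pair with overlapping intervals. Overlap of 2 intervals does not by itself place a change within counting error. Over 8925 coding genes of at least 3 kb with at least 50 untreated TSS tags, the median was 12.1 untreated and 11.2 after LPS. That set was chosen by its untreated TSS count, and Zfp36, at 2472 bp, is too short to belong to it.

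**Figure D4:**
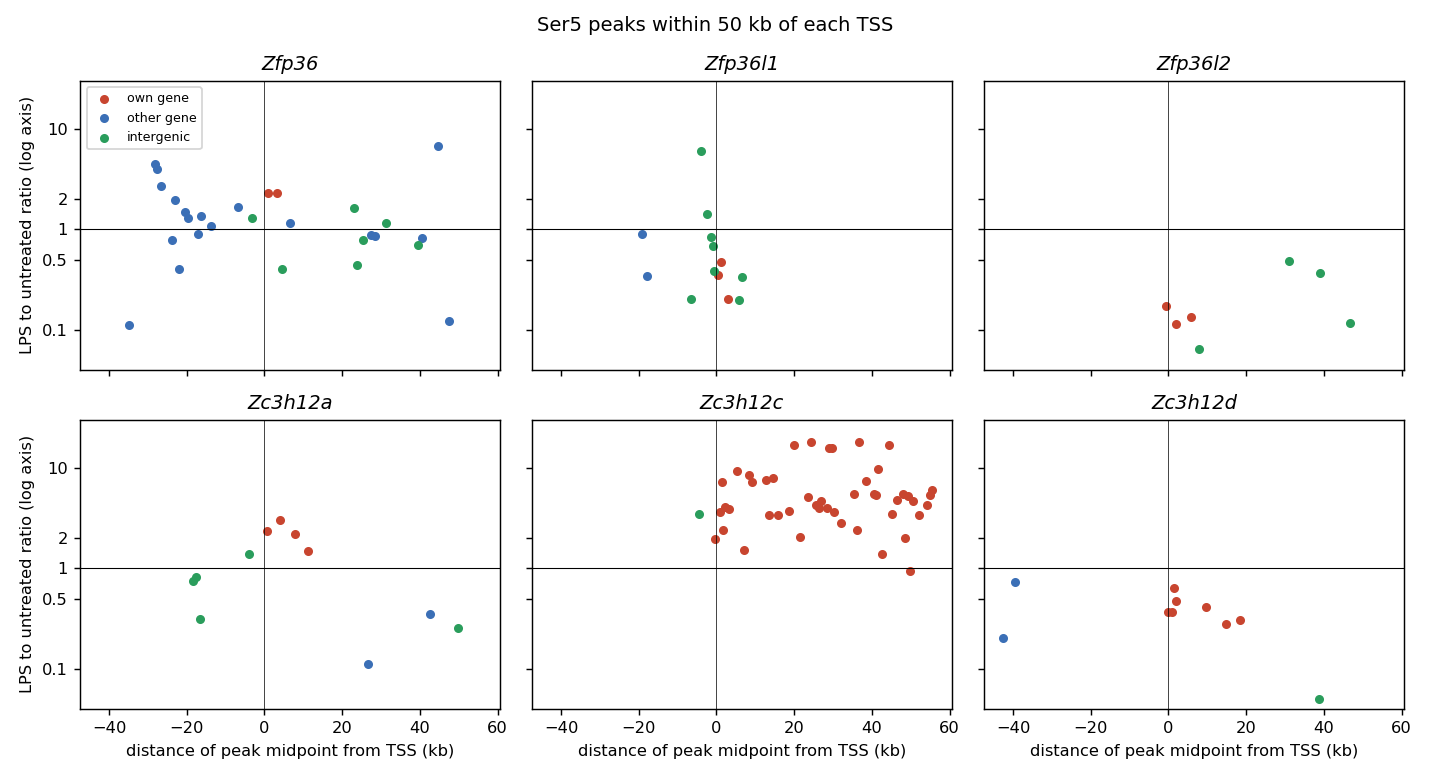
LPS to untreated ratio (log axis) of each Ser5 peak of either list within 50 kb of the TSS, against the distance of its midpoint from the TSS, for peaks holding 10 or more Ser5 tags in all. Colours show peaks touching the gene itself, another gene or no gene, and the 1 peak with 0 LPS tags, near Zc3h12d, is drawn near the lower edge. Of the 49 peaks touching Zc3h12c 44 were in the LPS list alone, and of the 7 around Zfp36l2 4 in the untreated list alone, so the direction of those peaks is not independent of the list they came from.

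By the 4 densities (gene body and TSS in both Ser5 libraries), the coding genes nearest to Zfp36 were Junb and 1500012F01Rik, at distances of 0.65 and 0.75 on the log2 scale. Nearest to Zfp36l1 were Tnfsf12 and Alox5ap, and to Zfp36l2 Ctsd and Scd2. Zc3h12a was nearest to Ikbke and Ppp1r15a, Zc3h12c to Relb and Fnbp1l, and Zc3h12d to Zkscan4 and Rbfa. Neighbours were picked by these same densities, so ratios close to those of the member follow from the choice, and shared regulation was not tested. At the gene body and the TSS, the neighbours of Zc3h12a had ratios of 2.57 and 2.03 (Ikbke) and 2.82 and 2.02 (Ppp1r15a). Those of Zc3h12c had 3.12 and 1.75 (Relb) and 4.45 and 2.00 (Fnbp1l).

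The proteins and messages of the members share features that the tags did not use. Translated from GENCODE M1, Zfp36, Zfp36l1 and Zfp36l2 each had 2 CCCH fingers with gaps of 8, 5 and 3 residues, and Zc3h12a, Zc3h12c and Zc3h12d had 0 with that spacing. When a wider range of gaps was allowed, Zc3h12a, Zc3h12c and Zc3h12d each had 1 CCCH finger and the Zfp36 members still 2. In local alignments, Zfp36l1 and Zfp36l2, which moved the same way, were identical at 64.7% of 329 aligned residues, and Zfp36 and Zfp36l1, which did not, at 46.6% of 219. Zc3h12c and Zc3h12d, which moved in opposite directions, were identical at 62.0% of 292, and Zc3h12a and Zc3h12c at 55.7% of 551.

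The AU-rich sequence that the Zfp36 proteins bind is also found in their own messages. In the longest annotated 3′ untranslated region, Zfp36, Zfp36l1 and Zfp36l2 each had 3 copies of TATTTAT and 1 of TTATTTATT, Zc3h12c had 2 and 0, and Zc3h12a and Zc3h12d had 0 of both. TATTTAT was in 23.9% and TTATTTATT in 6.52% of 19915 genes. These shares were not matched for length. The region was 774 bases long in Zfp36, 1829 in Zfp36l1, 1822 in Zfp36l2 and 3421 in Zc3h12c, beside a median of 893 over those genes. The first nonamer of each Zfp36 family message is shown with 26 bases in all, nonamer in capitals.
Zfp36 AU-rich site: tgacgactTTATTTATTgtattaaga
Zfp36l1 AU-rich site: ctgttggaTTATTTATTttagaaatt
Zfp36l2 AU-rich site: tatttaacTTATTTATTatcttgtga

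Few genes of the general decay machinery met the rule. Of 66 genes for deadenylation, decapping, the exosome, nonsense-mediated decay and other AU-rich or stem-loop binding proteins, 0 were called higher at the gene body (against 5.83% of all genes) and 2 lower (3.03%, against 11.3%), with a median ratio of 0.878 beside 0.874 over all genes. Dcp2, the decapping enzyme, had 659 and 1022 tags (1.89, 1.71 to 2.09), short of the rule. Those lower were Lsm5, of the decapping activator ring, with 78 and 31 tags (0.484), and Exosc5, an exosome subunit, with 120 and 49 (0.498). At the TSS 0 of 65 were higher and 1 lower, the deadenylase gene Cnot6l, with 59 and 22 tags (0.454). The family genes Zc3h12b and Zfp36l3 were below 2 times the input in both Ser5 libraries.

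Among 9 regulators of the decay factors, 3 were called higher at the gene body (against 5.83%) and 0 lower (against 11.3%), with a median of 1.57. Mapkapk2, the kinase that phosphorylates Zfp36, had 1392 and 7261 tags (6.36, 6.00 to 6.74). Malt1, the protease that cleaves Zc3h12a, had 376 and 1816 (5.89, 5.26 to 6.60), and N4bp1, another RNase of inflammatory mRNAs, 579 and 1521 (3.20, 2.91 to 3.53). At the TSS 2 of the 9 were higher (against 5.58%), Mapkapk2 at 2.93 and N4bp1 at 2.80, while Malt1 had 1.42.

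Of 16 known targets of the decay factors, 13 were called higher at the gene body (against 5.83% of all genes) and 1 lower (against 11.3%). Their median ratio was 7.59, and 11 were higher at the TSS (against 5.58%). Csf2 was counted as higher in both windows on few tags. It had 4 and 11 at the gene body (9 in the input, 3.35, 0.993 to 14.4) and 4 and 7 at the TSS (12 in the input, 2.13, 0.542 to 9.94). Il12b, the p40 subunit shared by interleukins 12 and 23, had the largest ratio, with 11 and 728 tags (80.7, 44.8 to 162). Fos, an AP-1 subunit, was the gene called lower, with 485 and 197 tags (0.495, 0.417 to 0.585). These targets were listed with their response to LPS known, so their count is no independent evidence.

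**Figure D5:**
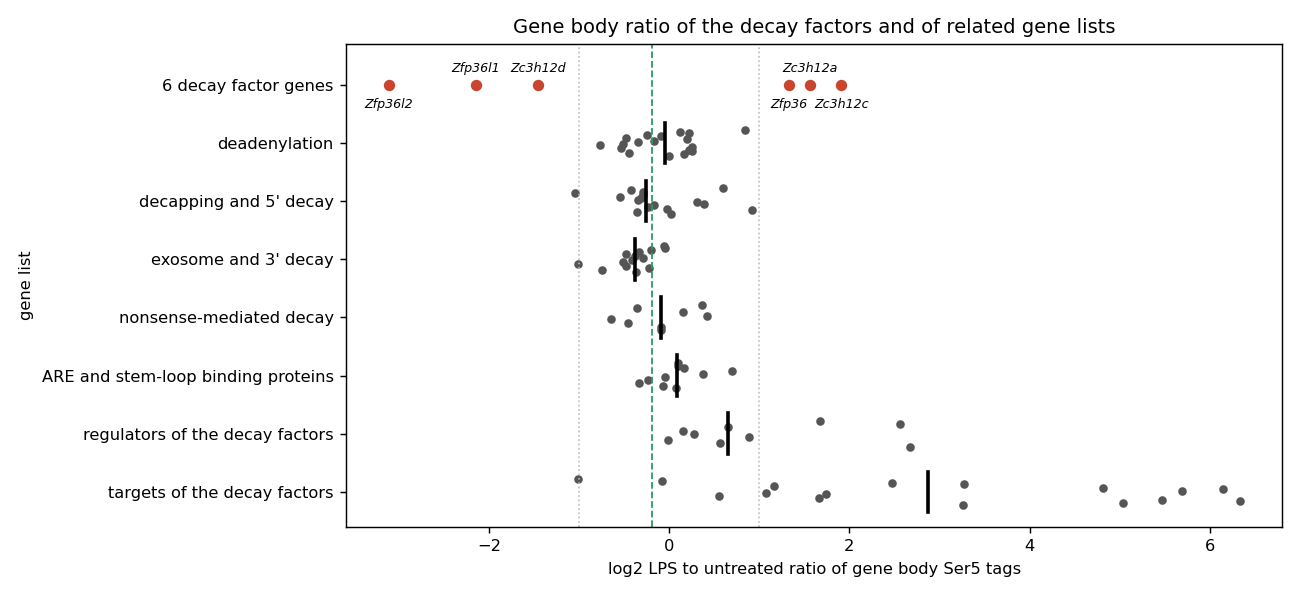
Log2 LPS to untreated ratio of gene body Ser5 tags for the 6 decay factor genes (red) and the genes of each related list (grey), with the median of each list as a black bar, the median of all genes as a green dashed line and the rule of size as dotted lines. The decay factors lie outside the dotted lines on both sides, while of 66 genes of the decay machinery and other binding proteins only Lsm5 and Exosc5 do.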

How the data were processed

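Deposited were aligned tags and peak lists. Per the supplementary methods, the authors shortened reads of 76 bases from the 3′ side, used Bowtie to place them on mm9, kept single matches with at most 2 mismatches, and called peaks with MACS in each Ser5 library against input at p 1e-05. Versions are not given in the sources used here. The deposited peak score is the MACS p-value on a minus log10 scale, multiplied by 10, and peaks were called per library. Duplicate tags were kept.

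From these, 5′ ends of tags were counted by gene body, TSS ± 1 kb, flanks (5 to 1 kb upstream, 4 kb downstream) and peaks (overlap of at least 1 bp), and expressed as TPM, relative to all tags on chromosomes 1 to 19 and X. Scaling to all tags assumes an equal share of background in each library. Intervals are exact: Poisson for densities, conditional on the sum for ratios. Peaks of both lists that overlapped were merged for the neighbourhood within 50 kb. Positions, 3′ ends and coding sequences came from GENCODE M1, promoters from RefSeq. No protein table was used, so proteins were translated from the annotated coding sequences and aligned locally (BLOSUM62). Nearest genes were the 2 with the smallest Euclidean distance over 4 log2 densities plus 0.1. From each list of decay genes, the rule named the called genes with the highest and the lowest gene body ratio. Dcp2 (not called), Malt1, Csf2 and Cnot6l (called at the TSS only) were named outside that rule. The members, lists and rules were chosen with earlier results of these data known. Simulated data with known answers were used to test how tags were counted and intervals computed. Python 3.11.15, numpy 2.4.6, pandas 2.3.3, scipy 1.17.1, numba 0.67.0, biopython 1.88 and matplotlib 3.10.9 were used.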

Additional observations from a re-analysis of the deposited data

How the results depend on the processing

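No paired analysis was possible because each condition has 1 library. The gene body and TSS ratios of all 6 genes kept their direction under every alternative that gave a value, and the cause of the shifts below was not tested except where the setting itself gives it. Counting 1 tag per position and strand gave 2.77 for Zfp36 and 0.150 for Zfp36l2 at the gene body, and a TSS to rest-of-gene quotient of 2.48 for Zfp36l2 untreated. Other annotated starts gave 0.128 for Zfp36l2 and 2.65 for Zc3h12a. Leaving out the first 1 kb gave 3.62 for Zfp36, and moving tags 75 bp downstream gave 0.309 for Zfp36l1. Subtracting the scaled input gave 0.139 for Zfp36l1, 3.29 for Zc3h12a and 8.15 for Zc3h12c, and gave no value for Zc3h12d, whose LPS tags lie below the input. Dividing by the median ratio of all genes, an alternative chosen after seeing the data, gave 2.87 for Zfp36, 3.38 for Zc3h12a and 4.31 for Zc3h12c, and at the TSS left 2 genes lower (Zc3h12d was at 0.55) and 3 higher. With a fold of 3 in place of 2, 1 gene was higher and 2 were lower at the gene body, and at the TSS 0 were higher and 1 lower. Input subtraction also left 2 genes lower at the gene body, since Zc3h12d had no value. With 500 bp on each side of the TSS 0 were higher, and scaling to tags outside the peaks, 2 kb on each side or input subtraction each gave 3. Scaling to tags outside the peaks turned the ratio of Zc3h12d after LPS to input from 0.919 to 1.89, since peaks hold a larger share of the Ser5 tags than of the input. That scaling moved the median of all genes to 0.941 at the gene body and 0.895 at the TSS. Without replicates, neither cultures nor library preparation can be told apart from LPS, and the input came from untreated cells alone.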
